A study of Mus musculus with 24 samples.

Results

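The genes described here build the pre-B cell receptor and cut and extend antibody genes in developing B cells. They were chosen by name, with earlier results of these data known, although the rule of choice used no measured value. The paper had already reported lower Rag1 in these mice with flight and with the knockout. Rows of the expression table were taken by Ensembl identifier in GENCODE M21 for Rag1, Rag2, Dntt, Vpreb1, Vpreb2, Igll1, Vpreb3, Cd79a, Cd79b and Il7r. These are 10 of 54752 genes, and each was found once and had a level above 1 TPM in at least 1 library, a unit that corrects for transcript length and for the total of the library. RNA was sequenced from the bone marrow of 24 male mice on a C57BL/6 background, with a library per mouse and 6 mice in each of 4 groups. FL-WT mice were wild type and FL-KO mice were Nrf2-knockout (Nrf2-KO), and both groups had been in space for 31 days. GC-WT and GC-KO mice were the wild-type and Nrf2-KO ground controls. The marrow cells of all groups were cryopreserved before RNA was extracted, and for the flight mice they were taken after the return to Earth. The sources name no cell type to which the deletion is limited. Per the paper, flight and ground mice could not be sampled in the same place, and the ground control experiment was run in Japan. Flight, the return and the place of sampling cannot be told apart in these groups.

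In the bone marrow, B cells start as pro-B cells, which need interleukin-7 from the stroma, sensed by a receptor whose alpha chain is the product of Il7r. The recombinase made of the RAG1 and RAG2 proteins cuts the antibody heavy chain locus, and terminal transferase, the product of Dntt, adds bases at the joints. A successful heavy chain is then displayed with the surrogate light chain, made of a VpreB protein and lambda5 (the product of Igll1), and with the signalling chains CD79A and CD79B. This pre-B receptor starts a burst of division, after which the recombinase is used again on the light chain loci. The signalling chains stay on B cells for life, whereas the surrogate light chain, terminal transferase and the recombinase are lost as the cells mature.

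The table holds TPM only, so the depth of each library is unknown and no counting interval can be given. The limma test was run on log2(TPM + 1) for the 12373 genes above 1 TPM in at least 1 library. A gene passed if its p, adjusted after Benjamini and Hochberg, was under 0.1, and was called a DEG (differentially expressed gene) if it also changed at least 2-fold on this scale, which understates the change of genes at a few TPM. More genes were lower than higher in each comparison. The median over all tested genes on the log2 scale was -0.24 for flight in wild-type mice (FL-WT vs. GC-WT), -0.29 for flight in Nrf2-KO mice (FL-KO vs. GC-KO), -0.22 for the genotype on the ground (GC-KO vs. GC-WT) and -0.25 for the genotype in flight (FL-KO vs. FL-WT). After median-of-ratios scaling between libraries, these medians lay between -0.0094 and 0.044, and the DEGs among all tested genes went from 116 lower and 8 higher to 16 and 19 for flight in wild-type mice, from 264 and 0 to 22 and 8 for flight in Nrf2-KO mice, from 376 and 16 to 62 and 35 for the genotype on the ground and from 1034 and 12 to 381 and 27 for the genotype in flight. Small RNAs took 35.4% to 59.6% of TPM in a library, and Nfe2l2, the gene of Nrf2, was at 11.4 to 27.3 TPM in wild-type and 2.22 to 7.18 TPM in Nrf2-KO mice. The markers of red cell precursors and neutrophils, the most abundant cells of the marrow, summed to 50706 to 148221 TPM and 24800 to 62702 TPM.

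Some of these genes are neighbours, and they are shown because Igll1 and Vpreb1 moved alike across the mice and Rag1 and Rag2 less so. Rag1 and Rag2 lie 5.75 kb apart on chromosome 2 and are read in opposite directions, whereas Igll1 and Vpreb1 lie 4.42 kb apart on chromosome 16 and are read in the same direction. The 250 bases before the RefSeq start of each gene (GRCm38.p6) are given 5′ to 3′ for the 3 of these genes whose window touches no exon of GENCODE M21. Capitals mark the E-box CANNTG, which E proteins such as the product of Tcf3 bind, and the motif CCCNNGGG of early B cell factor, found on either strand.
Rag1 (chr2:101649533-101649782, minus strand): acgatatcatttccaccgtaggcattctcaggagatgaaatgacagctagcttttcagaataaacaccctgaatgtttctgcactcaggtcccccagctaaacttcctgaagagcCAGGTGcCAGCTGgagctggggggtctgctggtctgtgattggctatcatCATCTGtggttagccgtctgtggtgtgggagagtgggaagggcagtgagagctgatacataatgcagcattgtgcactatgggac
Rag2 (chr2:101624462-101624711, plus strand): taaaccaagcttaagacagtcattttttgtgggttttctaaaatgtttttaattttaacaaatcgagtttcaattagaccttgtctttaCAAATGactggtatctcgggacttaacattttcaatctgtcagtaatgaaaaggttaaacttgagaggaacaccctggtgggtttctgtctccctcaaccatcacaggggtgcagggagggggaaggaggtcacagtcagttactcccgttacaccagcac
Igll1 (chr16:16863986-16864235, minus strand): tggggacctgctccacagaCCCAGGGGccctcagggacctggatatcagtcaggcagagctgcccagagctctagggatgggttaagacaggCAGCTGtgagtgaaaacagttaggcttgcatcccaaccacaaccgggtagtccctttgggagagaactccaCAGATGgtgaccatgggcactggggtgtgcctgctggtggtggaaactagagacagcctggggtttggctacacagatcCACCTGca

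Of the 10 genes, 9 had an entry in the RefSeq table. An E-box was found in the 250 bases of all 9, against 66.2% of the 32851 promoter windows of this length in the table. The windows of Vpreb1, Vpreb2, Cd79a and Il7r lay partly in exons of GENCODE M21, with 190, 137, 116 and 86 of their bases. Those of Vpreb1 and Vpreb2 hold the same E-box CAGGTG in a shared stretch, so they are not separate cases. The motif CCCNNGGG was found in 1 of 9 (Igll1), against 11.8% of all windows. The Ikaros motif TGGGAA was in 2 of 9 (Rag1 and Vpreb2), against 21.6%, and the STAT motif TTCNNNGAA was in 1 of 9 (Il7r), against 7.02%. The antioxidant response element TGACNNNGC, to which Nrf2 binds with small Maf proteins, was in 0 of 9, against 10.2% of all windows. Both strands were searched and matches could overlap, and a match or its absence describes only the letters of these windows.

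Vpreb1 (chr16:16868403-16870843, minus strand) and Vpreb2 (chr16:17980428-17981273, plus strand) are near-identical copies 1110 kb apart, with coordinates of mm10 from GENCODE M21. Their coding sequences, of 429 bases each, differ at 9 positions (97.9% identity), with a longest identical run of 196 bases. Of the windows of 100 bases in the coding sequence of Vpreb2, 29.4% also occur in a Vpreb1 transcript, so that the split of reads between both genes is an estimate and the values of Vpreb2 are uncertain. Positions 328 to 387 of both coding sequences, counted from the A of the start codon, hold 5 of the differences, which are shown in capitals.
Vpreb1: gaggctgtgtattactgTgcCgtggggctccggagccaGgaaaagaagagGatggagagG
Vpreb2: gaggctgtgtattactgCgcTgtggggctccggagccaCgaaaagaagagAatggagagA

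In GC-WT mice, the genes of the signalling chains and Vpreb3, which encodes a VpreB-like protein of B cell precursors, had the highest levels. Cd79a was at 75.8 ± 8.15 TPM (SD, n = 6), Cd79b at 72.6 ± 17.3 TPM and Vpreb3 at 58.1 ± 11.5 TPM, and the ranges of neighbours in this order overlapped. The next genes, apart from these in every mouse, were Igll1 at 11.7 ± 2.11 TPM, Vpreb1 at 10.3 ± 2.54 TPM, Dntt at 7.31 ± 1.26 TPM, Il7r at 7.20 ± 1.35 TPM and Rag1 at 6.59 ± 1.74 TPM, and each overlapped with the next. Rag2, at 2.12 ± 0.42 TPM, lay below every value of Rag1 and overlapped with Vpreb2, at 1.06 ± 0.44 TPM. In the other groups the order changed at few places. Cd79b stood above Cd79a in GC-KO mice and, with no overlap, in FL-KO mice, and Rag2 had the lowest mean in both flight groups.

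**Figure D1:**
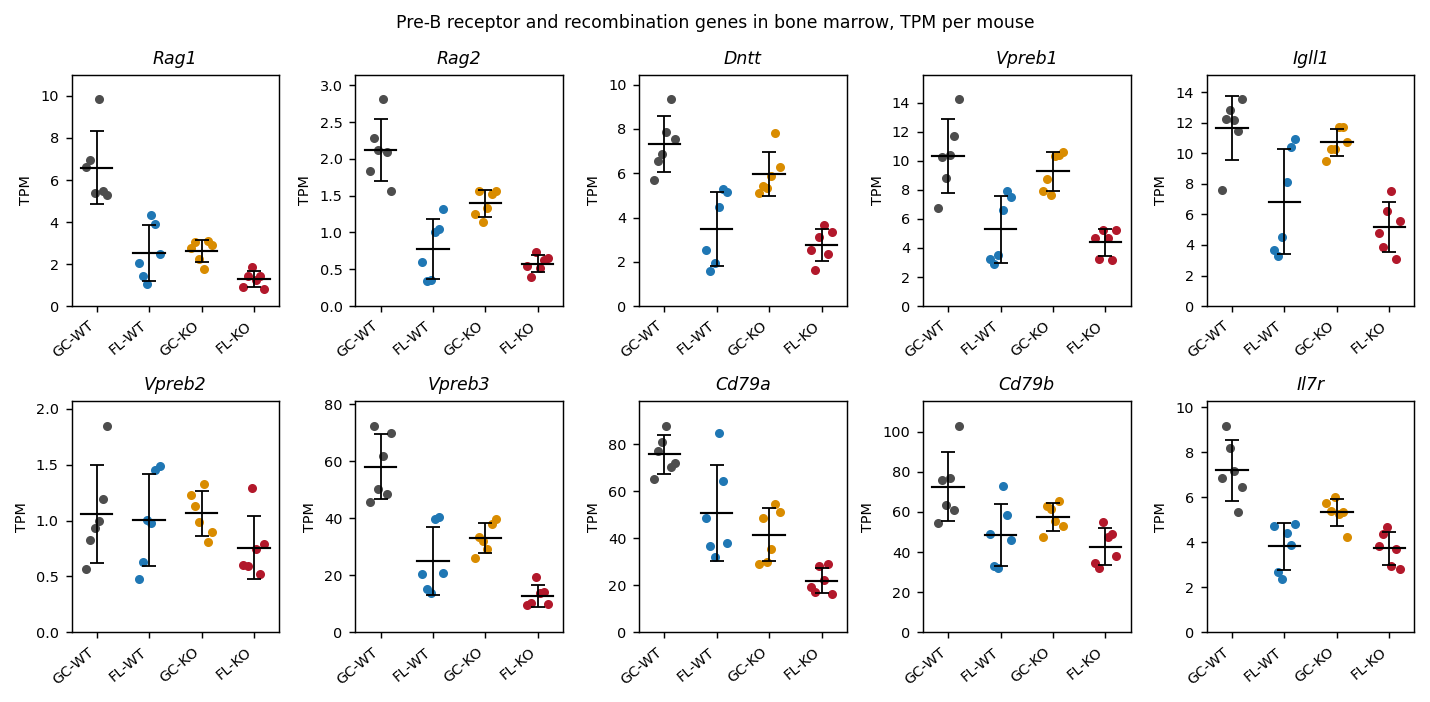
TPM of the 10 genes in the bone marrow of each mouse. Each point is a mouse (6 in a group), and the bars give the mean and SD. Rag1, Vpreb3 and Cd79a were lower with flight and with the knockout. Dntt, Vpreb1 and Igll1 had lower means in both flight groups and overlapped between the ground groups. Vpreb1 and Igll1 also overlapped between FL-WT and GC-WT mice.

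The first question was how flight changed these genes in wild-type mice. In FL-WT vs. GC-WT, 9 of the 10 genes passed lower, against 39% of all tested genes, and the exception was Vpreb2. Rag1 and Vpreb3 were DEGs, 2 of 10 against 0.938% of all tested genes. The FL-WT mice lay below all GC-WT mice for 5 of 10 genes (Rag1, Rag2, Dntt, Vpreb3 and Il7r), against 4.19% of all tested genes. The median log2 fold change of the 10 genes was -0.81, or -0.57 relative to the median of all tested genes. In bulk RNA, fewer B cell precursors and less RNA of these genes per cell cannot be told apart. Per the paper, flow cytometry of cryopreserved marrow found B-progenitors less frequent in FL-WT and FL-KO mice than in their ground controls. Mature B cells changed little there. The part of these frequencies in the RNA levels was not tested.

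Rag1, the catalytic part of the recombinase, had levels of 5.27, 6.06 and 9.84 TPM (lowest, median and highest) in GC-WT mice and of 1.03, 2.27 and 4.35 TPM in FL-WT mice. All FL-WT mice were below all GC-WT mice, and the log2 fold change was -1.16 ± 0.19 (SE, limma adjusted p = 0.000146). Its partner Rag2 ranged from 1.56 to 2.81 TPM in GC-WT mice and from 0.34 to 1.32 TPM in FL-WT mice, also without overlap (log2 fold change -0.83 ± 0.12, SE, limma adjusted p = 6.66e-05). Dntt, the terminal transferase gene, went from 5.68 to 9.34 TPM in GC-WT mice to 1.59 to 5.31 TPM in FL-WT mice (log2 fold change -0.96 ± 0.19, SE, limma adjusted p = 0.000815).

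Among the surrogate light chain genes, Igll1 had levels of 7.60, 12.2 and 13.5 TPM (lowest, median and highest) in GC-WT mice and of 3.28, 6.32 and 10.97 TPM in FL-WT mice. FL-WT mice 7, 8 and 10 lay above GC-WT mouse 3 and below the other GC-WT mice, and the log2 fold change was -0.79 ± 0.21 (SE, limma adjusted p = 0.00925). Vpreb1, where FL-WT mice 8 and 10 lay above GC-WT mouse 3, had a log2 fold change of -0.91 ± 0.19 (SE, limma adjusted p = 0.00156). Vpreb2 ranged from 0.57 to 1.85 TPM in GC-WT mice and from 0.48 to 1.49 TPM in FL-WT mice (log2 fold change -0.04 ± 0.14, SE, limma adjusted p = 0.839). Vpreb3 went from levels of 45.7, 56.0 and 72.5 TPM in GC-WT mice to 13.9, 20.6 and 40.5 TPM in FL-WT mice. Its groups did not overlap, and its log2 fold change of -1.28 ± 0.21 (SE, limma adjusted p = 0.000209) was the lowest of the 10 genes on the log2(TPM + 1) scale. In TPM without the added 1, the means of Rag2 (2.12 and 0.778 TPM) and Rag1 (6.59 and 2.54 TPM) differed more in proportion than those of Vpreb3 (58.1 and 25.1 TPM).

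The genes of the signalling chains had smaller log2 fold changes than the other members except Vpreb2, a difference that was not tested. Cd79a had levels of 65.3, 74.8 and 88.0 TPM (lowest, median and highest) in GC-WT mice and of 32.2, 43.4 and 85.0 TPM in FL-WT mice. Only FL-WT mouse 7, at 85.0 TPM, reached the GC-WT range, and the log2 fold change was -0.64 ± 0.20 (SE, limma adjusted p = 0.0205). Cd79b fell with a log2 fold change of -0.60 ± 0.18 (SE, limma adjusted p = 0.0159). Il7r, at 5.33 to 9.19 TPM in GC-WT mice, was at 2.38 to 4.82 TPM in FL-WT mice, without overlap, and its log2 fold change was -0.78 ± 0.14 (SE, limma adjusted p = 0.000403).

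After median-of-ratios scaling, 7 of the 10 genes still passed lower in FL-WT vs. GC-WT and none was a DEG, with log2 fold changes of -0.93 for Vpreb3 and -0.88 for Rag1. The number of DEGs rose from 2 to 4 without GC-WT mouse 3, without FL-WT mouse 8 or without FL-WT mouse 10, through Dntt and Vpreb1.

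The next question was whether flight acted alike in Nrf2-KO mice. In the Nrf2-KO mice (FL-KO vs. GC-KO), 9 of 10 genes passed lower, against 53.1% of all tested genes, and Vpreb2 was again the exception (limma adjusted p = 0.157), although it passed when these groups were fitted alone (limma adjusted p = 0.0699). Vpreb3 was the only DEG, 1 of 10 against 2.13% of all tested genes. FL-KO mice lay below all GC-KO mice for 6 of 10 genes (Rag2, Dntt, Vpreb1, Igll1, Vpreb3 and Cd79a), against 18.4% of all tested genes. The median log2 fold change was -0.77, or -0.48 relative to all tested genes.

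Vpreb3 had levels of 26.1, 32.6 and 39.8 TPM (lowest, median and highest) in GC-KO mice and of 9.43, 12.005 and 19.3 TPM in FL-KO mice, and its log2 fold change was -1.33 ± 0.21 (SE, limma adjusted p = 7.57e-05). Igll1 had levels of 9.47, 10.5 and 11.7 TPM in GC-KO mice and of 3.11, 5.18 and 7.56 TPM in FL-KO mice (log2 fold change -0.96 ± 0.21, SE, limma adjusted p = 0.00153). Every FL-KO mouse was below every GC-KO mouse for both genes. Vpreb1 and Dntt moved by -0.94 ± 0.19 and -0.90 ± 0.19 on the log2 scale (SE, limma adjusted p = 0.000717 and 0.000882). Cd79a went from 29.3 to 54.6 TPM in GC-KO mice to 16.3 to 29.1 TPM in FL-KO mice (log2 fold change -0.87 ± 0.20, SE, limma adjusted p = 0.00184).

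Rag1 overlapped here, with GC-KO mice at 1.77 to 3.08 TPM and FL-KO mice at 0.81 to 1.87 TPM. Its log2 fold change was -0.67 ± 0.19 (SE, limma adjusted p = 0.00765), and that of Rag2 was -0.60 ± 0.12 (limma adjusted p = 0.000802). The smallest changes that passed were those of Cd79b and Il7r, the interleukin-7 receptor gene, at -0.44 ± 0.18 and -0.43 ± 0.14 on the log2 scale (SE, limma adjusted p = 0.0471 and 0.0185). After median-of-ratios scaling, 7 of the 10 genes passed lower and none was a DEG, and Cd79b and Il7r were among those that did not pass. Igll1 joined the DEGs without FL-KO mouse 4 or without FL-KO mouse 9, which brought their number to 2.

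No difference of the flight effect between the genotypes was detectable. In the interaction of flight and genotype, 0 of 10 genes passed with limma, against 0.0162% of all tested genes that passed lower, and 0 of 10 had an unadjusted p under 0.05, against 3.46% of all tested genes. The largest difference was that of Rag1, whose log2 fold change with flight was 0.49 ± 0.27 (SE) higher in Nrf2-KO than in wild-type mice (limma adjusted p = 0.99995). For Il7r the difference was 0.35 ± 0.20 (SE, with the same adjusted p). Both flight comparisons use different mice, and the interaction compares them directly.

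**Figure D2:**
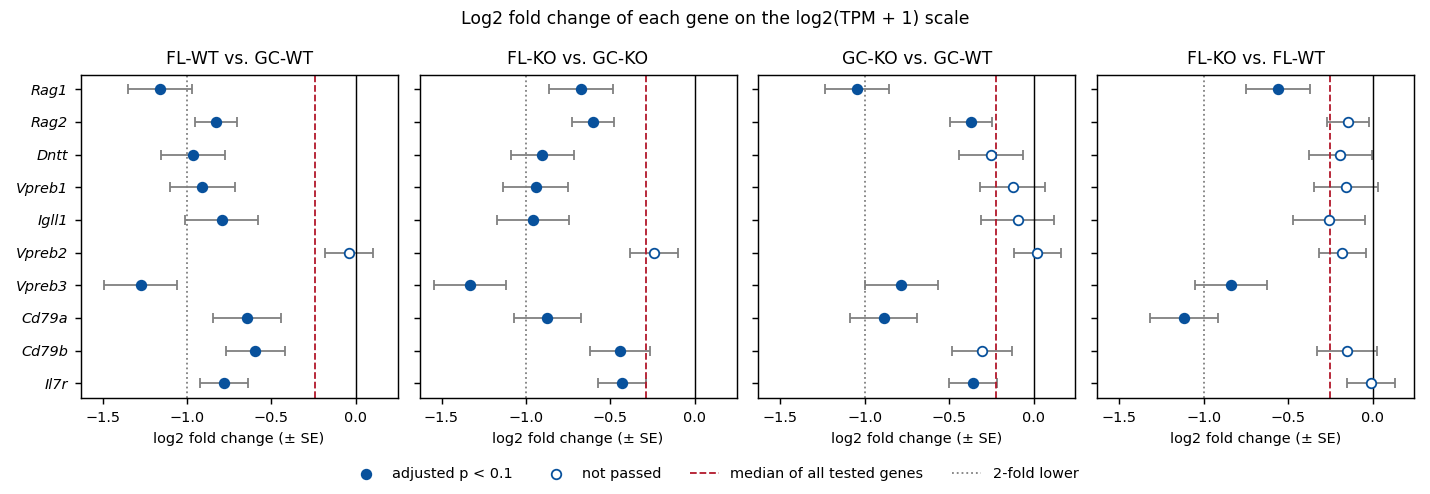
Log2 fold change of each gene on the log2(TPM + 1) scale, with its SE, in the 4 comparisons of 6 mice against 6. Filled points passed an adjusted p of 0.1, the dashed line is the median of all tested genes and the dotted line a 2-fold decrease. In both flight comparisons every gene but Vpreb2 passed lower, whereas 5 genes passed with the genotype on the ground and 3 in flight.

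The loss of Nrf2 was then examined on the ground. In GC-KO vs. GC-WT, 5 of the 10 genes passed lower (Rag1, Rag2, Vpreb3, Cd79a and Il7r), against 42.9% of all tested genes. Rag1 was the only DEG, 1 of 10 against 3.04% of all tested genes. GC-KO mice lay below all GC-WT mice for 3 genes (Rag1, Vpreb3 and Cd79a), against 9.15% of all tested genes. The median log2 fold change was -0.33, or -0.11 relative to all tested genes.

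Rag1 was at 1.77, 2.83 and 3.08 TPM (lowest, median and highest) in GC-KO mice, below the 5.27 TPM of the lowest GC-WT mouse, with a log2 fold change of -1.05 ± 0.19 (SE, limma adjusted p = 0.000416). Rag2 ranged from 1.14 to 1.57 TPM in GC-KO mice, which overlapped with GC-WT mice, and its log2 fold change was -0.37 ± 0.12 (SE, limma adjusted p = 0.0196). Leaving out GC-WT mouse 7 or GC-KO mouse 9 brought the log2 fold change of Rag1 to -0.94 and -0.97, which is under 2-fold, so that no DEG remained.

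Vpreb3 was lower by a log2 fold change of -0.78 ± 0.21 (SE, limma adjusted p = 0.00542) and Cd79a by -0.89 ± 0.20 (limma adjusted p = 0.00134). Cd79a had levels of 29.3, 42.1 and 54.6 TPM (lowest, median and highest) in GC-KO mice, all below the lowest GC-WT mouse at 65.3 TPM. Il7r changed by -0.36 ± 0.14 (SE, limma adjusted p = 0.0440). The remaining 5 genes did not pass.

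In GC-KO mice Igll1 had a mean of 10.7 ± 0.88 TPM (SD, n = 6), and its log2 fold change was -0.09 ± 0.21 (SE, limma adjusted p = 0.765). Vpreb1 was at 9.27 ± 1.34 TPM (log2 fold change -0.12 ± 0.19, SE, limma adjusted p = 0.648) and Dntt at 5.98 ± 1.01 TPM (-0.25 ± 0.19, limma adjusted p = 0.309). Cd79b was at 57.5 ± 6.87 TPM (-0.31 ± 0.18, limma adjusted p = 0.176). These values lay near the median of all tested genes, and with median-of-ratios scaling they turned to 0.23 for Igll1, 0.20 for Vpreb1, 0.06 for Dntt and 0.05 for Cd79b, whereas Rag1, Vpreb3 and Cd79a still passed lower, at -0.74, -0.43 and -0.54, and Rag2 and Il7r did not pass.

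The genotypes were then compared in flight. In FL-KO vs. FL-WT, 3 of 10 genes passed lower (Rag1, Vpreb3 and Cd79a), against 47.2% of all tested genes. Cd79a was the only DEG, 1 of 10 against 8.36% of all tested genes, and the only gene without overlap, against 20.6% of all tested genes. The median log2 fold change of the 10 genes was -0.19, which is 0.07 above the median of all tested genes.

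Cd79a had levels of 16.3, 20.9 and 29.1 TPM (lowest, median and highest) in FL-KO mice, below the lowest FL-WT mouse at 32.2 TPM. Its log2 fold change was -1.12 ± 0.20 (SE, limma adjusted p = 6.02e-05), and it became -0.96, under 2-fold, without FL-WT mouse 7. Vpreb3 changed by -0.84 ± 0.21 (SE, limma adjusted p = 0.00223), with FL-KO mice 4 and 11, at 19.3 and 14.1 TPM, inside the FL-WT range of 13.9 to 40.5 TPM. Rag1 changed by -0.56 ± 0.19 (SE, limma adjusted p = 0.0168), and did not pass after median-of-ratios scaling. The values of Il7r nearly coincided, at 3.82 ± 1.05 TPM in FL-WT and 3.73 ± 0.74 TPM in FL-KO mice (SD, n = 6), with a log2 fold change of -0.01 ± 0.14 (SE, limma adjusted p = 0.965). Under the same scaling, the value of Il7r turned to 0.36 and that of Cd79b to 0.28, and both then passed higher.

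Ratios of genes within a library do not depend on the scaling between libraries, and they are given as a description with no test. The TPM of Cd79b was 0.96 ± 0.24 times that of Cd79a in GC-WT mice and 0.98 ± 0.13 times in FL-WT mice (SD, n = 6), 1.46 ± 0.37 times in GC-KO mice and 1.96 ± 0.25 times in FL-KO mice. The lowest FL-KO mouse, at 1.68, lay above the highest FL-WT mouse, at 1.21, and the ground groups overlapped. A ratio to Cd79a that was higher in FL-KO mice without overlap was shared by 21.7% of all tested genes.

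The ratio of Rag1 to Cd79a was lower in all FL-WT mice than in all GC-WT mice, with geometric means of 4.69% and 8.53%, which held for 0.178% of all tested genes. The margin was narrow, with a log2 ratio of -3.94 in the highest FL-WT mouse and -3.91 in the lowest GC-WT mouse. Rag2 to Cd79a had geometric means of 1.43% in FL-WT and 2.76% in GC-WT mice, which overlapped. In Nrf2-KO mice the ratio of Rag1 to Cd79a had geometric means of 6.43% on the ground and 5.75% in flight, and these groups overlapped. The ratio of Vpreb3 to Cd79a had geometric means of 75.8% on the ground and 47.9% in flight in wild-type mice, and of 81.4% and 57.7% in Nrf2-KO mice. It was lower in flight in both genotypes and overlapped in each by the nearest mice. Igll1 to Cd79a went from 15.2% in GC-WT to 26.6% in GC-KO mice without overlap, as for 27.8% of all tested genes.

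**Figure D3:**
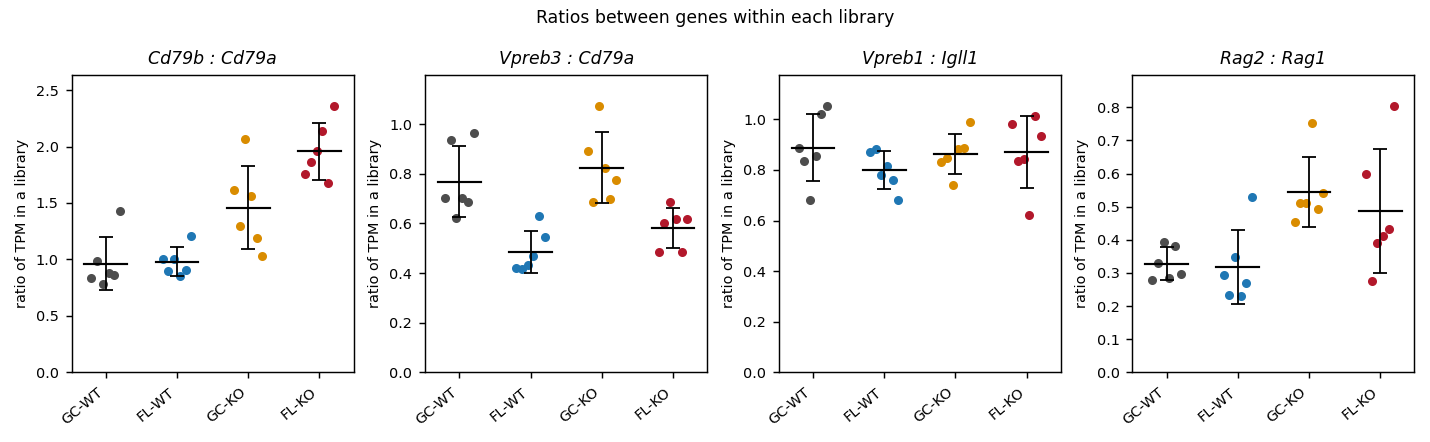
Ratio of the TPM of 2 genes within each library, for Cd79b to Cd79a, Vpreb3 to Cd79a, Vpreb1 to Igll1 and Rag2 to Rag1. Each point is a mouse and the bars give the mean and SD of 6 mice. The ratio of Vpreb1 to Igll1 had means of 0.80 to 0.89 in the 4 groups, while those of Cd79b to Cd79a ran from 0.96 in GC-WT to 1.96 in FL-KO mice.

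The surrogate light chain partners kept a steady proportion. Vpreb1 was 0.89 ± 0.13, 0.80 ± 0.07, 0.86 ± 0.08 and 0.87 ± 0.14 times Igll1 in wild-type mice on the ground and in flight and in Nrf2-KO mice on the ground and in flight (SD, n = 6). Rag2 was 0.33 ± 0.05 and 0.32 ± 0.11 times Rag1 in GC-WT and FL-WT mice, and 0.54 ± 0.11 and 0.49 ± 0.19 times in GC-KO and FL-KO mice. On the ground, the lowest GC-KO mouse was at 0.45 and the highest GC-WT mouse at 0.39, and a ratio to Rag1 that was higher in GC-KO mice without overlap was shared by 45.4% of all tested genes. Vpreb2, at 0.10 ± 0.02 times Vpreb1 in GC-WT mice, was at 0.20 ± 0.05 times in FL-WT mice, with the caution above on reads shared by these copies.

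The likeness of 2 genes was measured as the mean absolute difference, over the 24 libraries, of their log2(TPM + 1) values after each was centred on its own mean. Among the 10 genes, Igll1 was nearest to Vpreb1 (0.12) and Dntt (0.16) and far from Rag1 (0.44) and Cd79a (0.51). Rag1 lay at 0.27 from Vpreb3 and Cd79a and at 0.31 from its neighbour Rag2. Low genes such as Rag2 vary less on this scale, which enters these values.

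Over the 5025 genes whose mean reached 5 TPM, the 5 genes nearest to Igll1 were Vpreb1 (0.12), Tifa (0.18), Tapt1 (0.21), Ccnb1, the gene of cyclin B1 (0.21), and Nde1 (0.22), against a median of 0.42 over all these genes. The 5 nearest to Rag1 were Atp1b1 (0.19), Cd72, a B cell surface receptor (0.21), Blnk, the adaptor of the B cell receptor (0.21), Serinc5 (0.21) and Pax5, the factor that commits cells to the B lineage (0.22), against a median of 0.45. For Cd79a they were Myo1c (0.12), Pik3ap1, an adaptor of phosphoinositide 3-kinase (0.12), Map4k1 (0.13), Cnp (0.13) and Tsc22d4 (0.14), against a median of 0.45. For Il7r they were Klhl24 (0.18), Resf1 (0.19), Ifi209 (0.21), Ccnl1 (0.21) and Mndal (0.21), against a median of 0.36. The 4 lists shared no gene.

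Genes that act with the members were then counted from 4 lists. Of all tested genes, 39%, 53.1%, 42.9% and 47.2% passed lower, and 0.938%, 2.13%, 3.04% and 8.36% were DEGs with lower levels. These shares are in the order of flight in wild-type mice, flight in Nrf2-KO mice, genotype on the ground and genotype in flight. The 14 genes that join the cut ends or help the recombinase (such as Xrcc6, which encodes Ku70, and Hmgb2) held no DEG in any comparison, and 7, 9, 4 and 7 of them passed lower with flight in wild-type mice, flight in Nrf2-KO mice, the genotype on the ground and the genotype in flight. Their medians relative to all tested genes were -0.05, 0.02, 0.01 and 0.03 on the log2 scale. Most of these genes lay at a few TPM, where this scale understates changes and a DEG is harder to reach. The mean of Polm, for example, went from 3.77 to 1.94 TPM with flight in wild-type mice and from 1.73 to 0.80 TPM in Nrf2-KO mice. Only Poll (1.61 to 1.795 TPM) and Xrcc4 (2.105 to 2.155 TPM) had higher means with flight in wild-type mice. Xrcc6 changed by -0.78 ± 0.15 and -0.68 ± 0.15 with flight in wild-type and Nrf2-KO mice (SE, limma adjusted p = 0.000664 and 0.00124), and Hmgb2 by -0.31 ± 0.12 and -0.24 ± 0.12 (limma adjusted p = 0.0441 and 0.0896), which turned to 0.04 and 0.19 after median-of-ratios scaling.

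Of 14 genes of signalling below the pre-B receptor, 6 passed lower with flight in wild-type mice and 9 in Nrf2-KO mice with no DEG, and all 14 passed lower in both comparisons of the genotypes, with 3 DEGs on the ground and 6 in flight. In FL-WT vs. GC-WT, the adaptor gene Blnk changed by -0.85 ± 0.19 (SE, limma adjusted p = 0.00266). In FL-KO vs. FL-WT, Pik3cd, a phosphoinositide 3-kinase subunit, changed by -1.76 ± 0.24 (SE, limma adjusted p = 2.63e-06), Plcg2, a phospholipase, by -1.58 ± 0.24 (limma adjusted p = 1.03e-05) and Syk, the kinase that binds the signalling chains, by -1.22 ± 0.19 (limma adjusted p = 1.23e-05). Myeloid cells also use Syk, Plcg2 and Pik3cd. The medians relative to all tested genes were -0.18, -0.30, -0.61 and -0.56 in the 4 comparisons, in the order above.

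Of 14 genes of interleukin-7 signalling, 13 were tested, and Il7 itself, which stromal cells make, was not. Passing genes numbered 2 with flight in wild-type mice and 10 in Nrf2-KO mice, all lower and with no DEG. In GC-KO vs. GC-WT, 11 passed lower with 1 DEG, Il2rg, the gene of the receptor's common chain (log2 fold change -1.06 ± 0.19, SE, limma adjusted p = 0.000416). In FL-KO vs. FL-WT, 12 passed lower with 5 DEGs. The largest changes were those of Crlf2, which is not a chain of the interleukin-7 receptor (-1.57 ± 0.18, SE, limma adjusted p = 7.94e-07), and Ccnd3 (-1.36 ± 0.18, limma adjusted p = 2.21e-06). Il2rg changed by -1.28 ± 0.19 (SE, limma adjusted p = 7.68e-06) and Myc by -1.14 ± 0.18 (limma adjusted p = 1.13e-05). Il7r changed by -0.01 in the same comparison. Which cells of the marrow these values come from was not tested. The medians relative to all tested genes were -0.03, -0.23, -0.53 and -0.68.

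All 11 transcription factor genes of the B lineage passed lower in each of the 4 comparisons, with 3, 2, 6 and 3 DEGs. Tcf3, which encodes E proteins, changed by -0.87 ± 0.18 and -1.36 ± 0.18 with flight in wild-type and Nrf2-KO mice (SE, limma adjusted p = 0.00139 and 1.84e-05) and by -1.04 ± 0.18 with the genotype on the ground (limma adjusted p = 0.000411). Pax5 changed by -0.89 ± 0.21 with flight in wild-type mice and by -0.57 ± 0.21 in Nrf2-KO mice (SE, limma adjusted p = 0.00353 and 0.0305). Spib and Pou2af1, which act in B cells, changed by -1.32 ± 0.22 and -1.18 ± 0.18 with the genotype on the ground (limma adjusted p = 0.000396 and 0.000179). The medians relative to all tested genes were -0.63, -0.30, -0.81 and -0.51, against -0.57, -0.48, -0.11 and 0.07 for the 10 members.

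**Figure D4:**
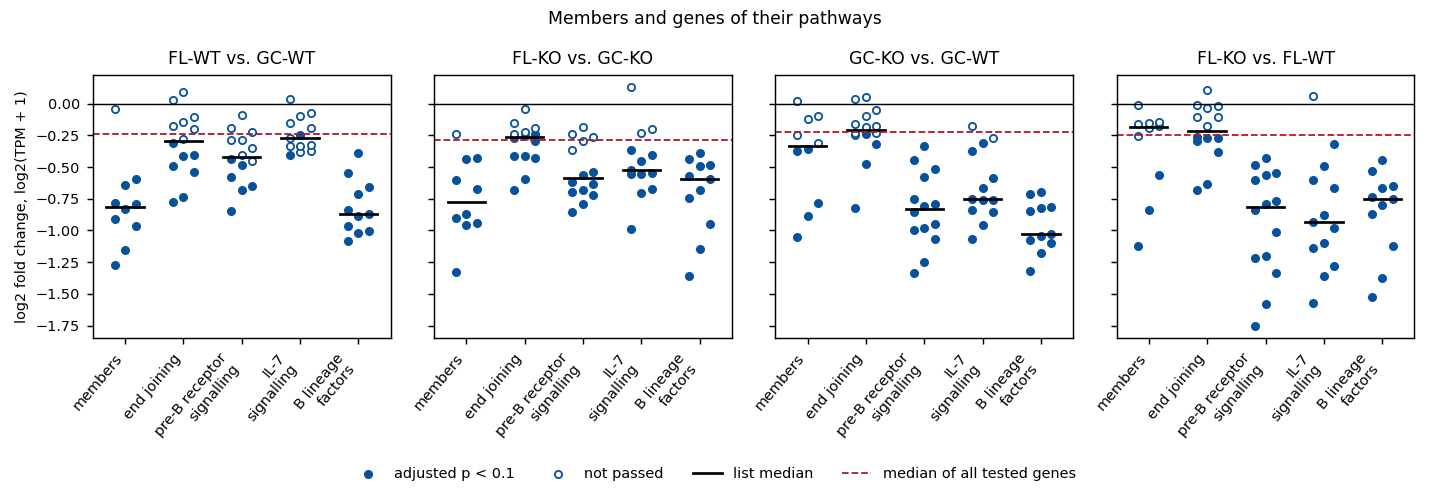
Log2 fold change of the 10 members and of the genes of 4 pathway lists on the log2(TPM + 1) scale in the 4 comparisons. Each point is a gene, filled where it passed an adjusted p of 0.1, the bar is the median of a list and the dashed line the median of all tested genes. The genes of end joining lay on both sides of the dashed line in every comparison, and the B lineage factors lay below it in all 4.

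Markers of other cells moved beside these genes, and their part in the results was not tested. Each count of markers that passed lower stands beside the shares of all tested genes given for the pathway lists. Neutrophil markers (5 genes) summed to 34599 ± 8566 TPM (SD, n = 6) in GC-WT mice, 49217 ± 5939 TPM in FL-WT mice, 45746 ± 7212 TPM in GC-KO mice and 51580 ± 7483 TPM in FL-KO mice. In FL-WT vs. GC-WT 4 of the 5 passed higher, against 0.994% of all tested genes, and with the genotype on the ground 2 passed higher, against 3.13%, and 1 lower. In the other comparisons none passed higher, and 1 passed lower with flight in Nrf2-KO mice and 2 with the genotype in flight, where Ltf, the lactoferrin gene, changed by -2.33 ± 0.28 (SE, limma adjusted p = 9.88e-07). Erythroid markers (5 genes) summed to 96354, 103030, 125224 and 120237 TPM on average in the same order of groups, and 0, 0, 2 and 1 of the 5 passed higher and 2, 3, 1 and 1 lower in the 4 comparisons.

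T cell markers (8 genes) summed to 22.8 ± 3.75, 21.1 ± 7.42, 16.5 ± 4.60 and 15.1 ± 3.27 TPM in the same order. Ptcra, which defines thymocytes that use the recombinase at the T cell receptor, was listed at 0 in every library of FL-WT mice and of all Nrf2-KO mice and had a mean of 0.005 TPM in GC-WT mice. Of the 7 T cell markers tested, 1, 1, 4 and 3 passed lower in the 4 comparisons, in the order used for the pathway lists. Of all tested genes, 39%, 53.1%, 42.9% and 47.2% did so. Mature B cell markers (8 genes) summed to 157 ± 21.9, 123 ± 46.9, 93.6 ± 17.4 and 64.0 ± 12.3 TPM in the 4 groups, and 2, 4, 6 and 6 of them passed lower in the 4 comparisons. Cd37, the largest part of this sum, was at 67.6 ± 10.1, 53.4 ± 19.8, 33.85 ± 8.65 and 18.9 ± 3.68 TPM in the same groups. Fcmr was at 16.2 ± 3.88, 12.5 ± 6.12, 7.25 ± 2.20 and 3.71 ± 0.88 TPM. Ms4a1, the CD20 gene, differed less, at 18.8 ± 5.62, 16.3 ± 3.77, 19.4 ± 3.35 and 17.2 ± 3.20 TPM.

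Markers of dividing cells (6 genes) summed in wild-type mice to 352 ± 60.7 TPM without and 210 ± 56.7 TPM with flight, and to 305 ± 65.1 TPM in GC-KO and 165 ± 34.4 TPM in FL-KO mice (SD, n = 6). With flight, 5 of 6 passed lower in wild-type and 6 of 6 in Nrf2-KO mice, whereas 1 of 6 and 2 of 6 did so with the genotype on the ground and in flight. The shares of all tested genes that passed lower were 39%, 53.1%, 42.9% and 47.2% in this order, which is also that of the counts below. Early B cell and progenitor markers (10 genes, 8 tested) passed lower for 5, 6, 6 and 6 genes in the 4 comparisons. Of 5 NK cell markers, 0, 0, 1 and 3 passed lower and 0, 0, 1 and 0 higher. Of 3 plasma cell markers tested 1, 1, 1 and 2 passed lower, and of 5 markers of plasmacytoid dendritic cells 1, 3, 2 and 1.

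Single mice differed in most of these genes together. GC-WT mouse 3 was the lowest of its group for 7 of 10 genes, and FL-KO mouse 4 was the highest of its group for 7 of 10. Of the FL-WT mice, mice 5 and 6 were the lowest for 4 and 5 genes, and mice 7, 8 and 10 were the highest for 3, 3 and 4. FL-WT mouse 10 was high for Igll1 (10.97 TPM) and Rag2 (1.32 TPM) and low for Cd79a (38.1 TPM), whereas mouse 7 was highest for Cd79a (85.0 TPM) and Rag1 (4.35 TPM). The library factor of median-of-ratios scaling was the lowest of its group in GC-WT mouse 3 (1.09). It was 0.74 and 0.85 in FL-WT mice 5 and 6 and 1.41, 1.22 and 1.09 in mice 7, 8 and 10. In FL-KO mouse 4 it was 0.72, below the 0.89 of FL-KO mouse 11. The part of this factor in the ranks of the mice was not tested.

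The share of small RNAs was higher in the 3 FL-WT libraries with the lowest Igll1. It was 51.1%, 59.6% and 50.9% in FL-WT mice 3, 5 and 6 and 42.6%, 40.1% and 43.5% in mice 7, 8 and 10, and Igll1 was at 3.70, 3.28 and 4.54 TPM in the former and at 8.10, 10.4 and 10.97 TPM in the latter. Cd79a did not follow the same split, with 48.7, 36.8 and 32.2 TPM in mice 3, 5 and 6 and 85.0, 64.4 and 38.1 TPM in mice 7, 8 and 10. Outside FL-WT mice, the share and Igll1 did not always go together. GC-WT mice 3 and 5 had shares of 57.1% and 58.2%, with Igll1 at 7.60 and 12.28 TPM. FL-KO mouse 11 had the lowest share of its group (46.1%) and the lowest Igll1 (3.11 TPM). FL-KO mouse 2 had the highest share of that group (59.3%), with Igll1 at 3.88 TPM. The part of the small RNA share in the levels was not tested. Without the 4 libraries in which it was above 55% (GC-WT mice 3 and 5, FL-WT mouse 5 and FL-KO mouse 2), 9, 8, 4 and 3 of the 10 genes passed lower in the 4 comparisons, against 9, 9, 5 and 3 with all libraries.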

How the data were processed

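RNA of cryopreserved bone marrow cells from 24 mice was extracted with ISOGEN-LS, and directional libraries were sequenced on a DNBSEQ-G400. Per the submitters' processing notes, STAR 2.6.1, RSEM 1.3.1 and the mm10 genome were used, and the authors deposited a TPM value per gene and mouse, which is normalized to transcript length and to a fixed total in each library. TPM keeps no read counts, so the depth and its precision are unknown.

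Identifiers of 54723 of 54752 genes were matched to GENCODE M21. Genes above 1 TPM in at least 1 library (12373) were fitted with limma 3.58.1 in R 4.3.3 as log2(TPM + 1), with a mean for each of the 4 groups over all 24 libraries. P-values were adjusted over all tested genes, and no value was imputed. DEGs passed an adjusted p of 0.1 and a 2-fold change. The mice of a group are separate animals. The highest correlation between any pair of libraries was 0.994, so no pair held identical values. The 10 genes, the pathway and marker lists and the tests were chosen with earlier results of these data known.

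All 10 members were named. From each pathway list, at most 4 genes were named per comparison, those with the largest change among genes past an adjusted p of 0.1 and with a mean of at least 5 TPM. Any other gene was named as an example or for its function. The 5 genes nearest to Rag1, Igll1, Il7r and Cd79a were named. Alternatives covered the pseudocount, filters, scaling (median of ratios, quantiles, removal of small RNAs, a GC content and length trend), limma's trend option, the threshold, the groups in the fit, the mouse number as a term and each library left out. The fits were tested on simulated data. Promoter windows came from RefSeq and coding sequences from GENCODE M21. The values of 1 pathway gene are not reported here.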

Additional observations from a re-analysis of the deposited data

Results flagged for a closer look

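In 3 of 40 groups checked (10 genes in 4 groups of 6 mice), the highest or lowest mouse stood apart from the others by Dixon's criterion, and chance gives about 1 in 20. Rag1 was at 9.84 TPM in GC-WT mouse 7, against 5.27 to 6.94 TPM in the other GC-WT mice. Igll1 was at 7.60 TPM in GC-WT mouse 3, against 11.45 to 13.54 TPM in the others, and this library had 57.1% small RNAs. GC-WT mouse 5 had 58.2% small RNAs, with Igll1 at 12.28 TPM. Vpreb2 was at 1.29 TPM in FL-KO mouse 4, against 0.52 to 0.79 TPM in the others, and this mouse was the highest of its group for 7 of the 10 genes. Without GC-WT mouse 7, Rag1 changed by -0.94 on the log2 scale in GC-KO vs. GC-WT, which is under 2-fold.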

How the results depend on the processing

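The adjusted p threshold of 0.05, limma's trend option, no filter and a filter of 1 TPM in at least 6 libraries each left all 92 log2 fold changes in the same direction and on the same side of the DEG threshold, as did the fit of 2 groups alone for its 90. In the order of flight in wild-type mice, flight in Nrf2-KO mice, genotype on the ground and genotype in flight, the DEGs among the 10 genes numbered 2, 1, 1 and 1. With a pseudocount of 0.1 they numbered 5 and 6 in the flight comparisons, and with no minimum fold change 9, 9, 5 and 3. Median-of-ratios scaling gave 0 in each comparison and quantile normalization 1, 0, 0 and 0. They numbered 5 for flight in wild-type mice and 2 for the genotype on the ground without the small RNAs, and 1 for flight in wild-type mice and 0 in both genotype comparisons with the GC content and length trend removed. The genes that passed lower at any fold, 9, 9, 5 and 3 as reported, numbered 8, 8, 4 and 2 with no filter (without Cd79a, Cd79b, Il7r and Rag1, in turn) and 9, 10, 6 and 3 with the fit of 2 groups alone (with Vpreb2 and Cd79b). The scalings move the median of all genes, as given above, and the cause of the other changes was not tested.

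Direction turned for small changes (log2 fold changes follow). With median-of-ratios scaling, Vpreb2 turned to 0.12 and Hmgb2 to 0.037 for flight in wild-type mice and Hmgb2 to 0.19 for flight in Nrf2-KO mice. For the genotype on the ground Dntt turned to 0.057, Vpreb1 to 0.20, Igll1 to 0.23 and Cd79b to 0.045. For the genotype in flight Rag2 turned to 0.055, Dntt to 0.16, Vpreb1 to 0.22, Vpreb2 to 0.034, Igll1 to 0.13, Cd79b to 0.28, Il7r to 0.36 and Xrcc6 to 0.0050. With quantile normalization, Vpreb2 turned to 0.18 and 0.00845 in the flight comparisons and Hmgb2 to 0.027 for flight in Nrf2-KO mice. Dntt turned to 0.094, Vpreb1 to 0.23 and Igll1 to 0.25 for the genotype on the ground. For the genotype in flight Rag2 turned to 0.027, Dntt to 0.23, Vpreb1 to 0.29, Vpreb2 to 0.027, Igll1 to 0.19, Cd79b to 0.20, Il7r to 0.43 and Xrcc6 to 0.060. With the GC content and length trend removed, Vpreb2 turned to 0.20 and 0.16 in the flight comparisons and Hmgb2 to 0.18 for flight in Nrf2-KO mice. Dntt turned to 0.031, Vpreb1 to 0.25, Igll1 to 0.21 and Cd79b to 0.076 for the genotype on the ground. For the genotype in flight Dntt turned to 0.12, Vpreb1 to 0.41, Vpreb2 to 0.36, Igll1 to 0.10, Cd79b to 0.35 and Il7r to 0.087. Without the small RNAs, Vpreb2 turned to -0.030 for the genotype on the ground and Il7r to 0.070 for the genotype in flight. Without the 4 libraries of highest small RNA share, an alternative chosen after seeing the data, Vpreb2 turned to -0.11 for the genotype on the ground.

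When single libraries were left out, the DEGs among the 10 genes numbered 2 to 4, 1 to 2, 0 to 1 and 0 to 1 in the 4 comparisons and 0 to 0 in the interaction, and the genes that passed lower at any fold 9 to 9, 8 to 10, 4 to 6 and 3 to 3. Vpreb2 ranged from -0.11 to 0.058 for flight in wild-type mice and from -0.052 to 0.12 for the genotype on the ground, and Il7r from -0.11 to 0.050 for the genotype in flight. For flight in wild-type mice, Dntt also became a DEG without FL-WT mouse 7 (log2 fold change -1.04).

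Mouse numbers are shared by the ground and flight groups of a genotype. Deviations of mice with the same number correlated at -0.026 to 0.27, over 0.1 for 7 of 12 numbers, and 3 of 12 numbers correlated best with themselves, so the numbers were not taken to pair the mice. With the number as a replicate block, the DEGs among the 10 genes numbered 2 for flight in wild-type mice, 1 for flight in Nrf2-KO mice and 0 in the interaction, and none of 46 log2 fold changes crossed the DEG threshold. Vpreb2 passed lower at any fold with the block in FL-KO vs. GC-KO (limma adjusted p = 0.0519).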
